A study of Mus musculus with 8 samples.

Results

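A set of 45 skeletal muscle genes was followed in the outflow veins of mouse arteriovenous fistulas. They were chosen by name, as known genes of muscle fibres and their precursors, and all 45 were found among the 23358 gene rows of the deposited table. By role, 14 belong to fast fibres, 4 to slow fibres, 2 are embryonic myosins and 4 are satellite cell and myogenic factor genes. A further 11 build the sarcomere of both fibre types, 2 couple excitation to contraction, 6 serve muscle metabolism and 2 are ubiquitin ligases of muscle atrophy.

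All samples were outflow veins of the C57BL6J strain, all with a model of chronic kidney disease, in which the carotid artery and the jugular vein had been joined 28 days after the disease was induced. Veins were taken 3 days after that operation. The MSC group (n = 4) had received 250000 mesenchymal stem cells (MSCs) of a same-sex C57 donor on the outer surface of the vein, and the vehicle group (n = 4) had received vehicle. The labels give no age and do not name the animal behind a sample, so p-values measure only the spread between these samples, which may be technical. They also do not say how much tissue around the vein was taken. Values are RPKM (read counts scaled to gene length and to depth), behind which lay 26.9 to 38.2 mega-reads in genes per sample. Samples are called vehicle 1 to 4 and MSC 1 to 4.

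Skeletal muscle fibres are long, multinucleated cells packed with sarcomeres, in which myosin heavy chains pull on actin filaments and troponins switch the pull on when calcium is released. Fast fibres use the myosins Myh4 (type IIb), Myh1 (type IIx) and Myh2 (type IIa), and slow fibres use Myh7; each class also has its own troponins. After injury, satellite cells marked by Pax7 activate Myf5 and Myod1, switch on Myog and fuse into new fibres, which for a time make the embryonic and perinatal myosins Myh3 and Myh8. The wall of a vein holds smooth muscle, whose actin and myosin genes are different ones.

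Reads of the 45 genes were present in every vein, but in very unequal amounts. The 45 genes together held 0.233% of gene reads in vehicle 1 (95% Wilson interval 0.2312 to 0.2345), 0.0301% in vehicle 2 (0.02949 to 0.03068), 0.00793% in vehicle 3 (0.007626 to 0.00824) and 0.0517% in vehicle 4 (0.05084 to 0.05255). They held 0.322% in MSC 1 (0.3201 to 0.3242), 0.279% in MSC 2 (0.2776 to 0.2811), 0.303% in MSC 3 (0.3018 to 0.3052) and 0.0123% in MSC 4 (0.01196 to 0.01273). These intervals cover counting error only. Vehicle 1 and MSC 1 to 3 were thus high, vehicle 3 and MSC 4 were the lowest, and the groups overlapped. In such bulk samples, fewer muscle cells and less RNA per cell cannot be told apart.

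That order of samples recurred gene by gene. In 34 of the 45 genes the 4 highest values were those of vehicle 1 and MSC 1, 2 and 3. The other 11 were Myh2, Myh3, Myh7, Myh8, the slow troponins Tnnc1, Tnni1 and Tnnt1, the myogenic factors Myf5, Myod1 and Myog, and Xirp1. Within the vehicle group, vehicle 1 was highest in 39 genes and vehicle 3 lowest in 37. Within the MSC group, MSC 4 was lowest in 38 genes. Of the 45 genes, 17 were highest in MSC 1, 17 in MSC 2, 9 in MSC 3, 1 in vehicle 1 (Trim63) and 1 in vehicle 4 (Myh7).

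**Figure D1:**
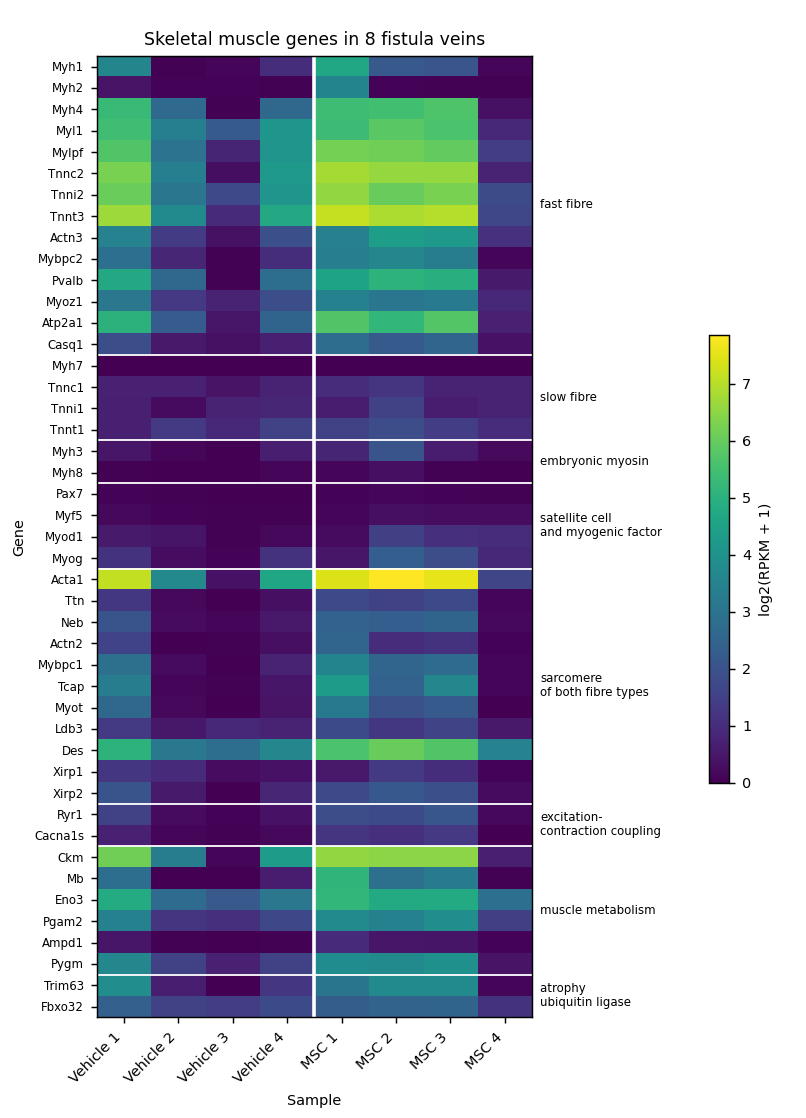
Level of the 45 skeletal muscle genes (rows, by role) in the 8 veins (columns), as log2(RPKM + 1), with the white vertical line between vehicle and MSC samples. Vehicle 1 and MSC 1 to 3 stand out as bright columns, and vehicle 3 and MSC 4 as dark ones; Myh7 is dark throughout.

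None of these genes passed the test of MSC against vehicle. Of the 45, 34 reached a mean of 1 RPKM and were tested, and 0 passed an adjusted p of 0.05 in limma (log2(RPKM + 1), Benjamini-Hochberg over 12129 genes), against 0.231% of all genes tested (0.0247% higher and 0.206% lower in MSC veins). At an unadjusted p under 0.05 there was 1 of 34, Des, against 16.5% of all genes tested, and limma voom on reads recovered from the RPKM steps also called 0 of 34. That count was 18 of 34 with array weights (22.5% of all genes tested) and 10 of 34 with the replicate block (14.6%), again with 0 called. The array weights were lowest for vehicle 1 (0.358) and highest for MSC 2 (2.07) and MSC 3 (1.84), so that fit is close to one with vehicle 1 left out. In 0 of the 45 genes did the groups lie apart, against 7.59% of the 19695 genes with any reads. For the 34 tested the count was also 0, against 9.78% of all genes tested. The log2 fold changes (MSC minus vehicle) ran from 0.33 to 2.16 over the 34, with a median of 1.21 beside 0.04 over all genes tested. All 34 were above 0, as were 59.5% of all genes tested. The members follow the same samples and are not independent of each other. The 34 include genes that passed the filter through the high samples only.

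How far the values moved with single samples was measured by leaving each out. Without MSC 4, 30 of the 34 had an unadjusted p under 0.05 (12.8% of all genes tested) and in 15 the groups did not overlap (13.0% of all genes tested), but 0 passed the adjusted threshold, with a lowest limma adjusted p of 0.151. The median log2 fold change over the 34 was then 1.89. It was 1.84 without vehicle 1, when 16 of the 34 had an unadjusted p under 0.05 (17.3% of all genes tested), and 0.75 without vehicle 3, when 0 did (19.3%).

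Among genes of the fast fibre, the 3 fast troponins were the most abundant. Tnnt3, the fast troponin T that anchors the complex to tropomyosin, stood at 103.8, 12.3, 0.913 and 25.5 RPKM in vehicle 1 to 4 and at 141.4, 117.2, 125.0 and 2.2 in MSC 1 to 4. Tnnc2, the fast calcium sensor troponin C, stood at 76.4, 9.37, 0.23 and 18.0 RPKM in the vehicle samples and at 109.7, 96.8, 96.3 and 0.675 in the MSC samples. For Tnni2, the fast inhibitory troponin I, the values were 66.3, 7.4, 2.32 and 16.1 RPKM in vehicle veins and 94.9, 64.5, 76.0 and 2.5 in MSC veins. In each of the 3, MSC 4 lay below vehicle 2 while the other MSC veins lay above vehicle 2 to 4. Their log2 fold changes were 1.65 (SE 1.44, limma adjusted p = 0.607) for Tnnt3, 1.64 (SE 1.55, limma adjusted p = 0.636) for Tnnc2 and 1.43 (SE 1.17, limma adjusted p = 0.58) for Tnni2. Exons of Tnnc2 overlap those of Ube2c on the other strand; the sources used here do not give whether counting used strand.

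The other fast fibre genes followed the same samples. The fast myosin light chains Myl1 and Mylpf were highest at 56.7 RPKM in MSC 2 and 72.4 in MSC 1, and lowest at 0.822 in MSC 4 and 0.753 in vehicle 3. Atp2a1, the calcium pump of the fast sarcoplasmic reticulum, ran from 0.377 RPKM in vehicle 3 to 52.4 in MSC 3, and Pvalb, a calcium buffer of fast fibres, from 0.0252 in vehicle 3 to 32.6 in MSC 2. Casq1, which stores calcium in the reticulum, was among the members with the smallest unadjusted p. It stood at 2.68, 0.443, 0.279 and 0.612 RPKM in vehicle veins and at 6.03, 3.68, 4.84 and 0.297 in MSC veins (log2 fold change 1.13, SE 0.53, limma adjusted p = 0.327). MSC 1 to 3 were above every vehicle vein and MSC 4 was below vehicle 1, 2 and 4. Over the 14 fast genes, all tested, log2 fold changes lay between 0.63 and 1.76 with a median of 1.42, 0 were called, and limma adjusted p ran from 0.327 to 0.818. Actn3 (Z-disc actinin), Mybpc2 (a myosin-binding protein) and Myoz1 (a Z-disc protein) lay within that range.

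The myosin heavy chains told the fibre types apart. In GRCm38, the assembly behind the mm10 build of the files, 5 of the 6 lie in a row on the plus strand of chromosome 11: Myh3 (67078300 to 67102291), Myh2 (67171027 to 67197517), Myh1 (67200052 to 67224575), Myh4 (67238029 to 67260446) and Myh8 (67277124 to 67308634). Myh7 lies on chromosome 14 (54970684 to 54994626, minus strand). The promoters of the 3 adult fast myosins are shown because these genes, next to one another, were used in different proportions between veins. Each is the RefSeq window from 250 bases before to 50 after the start site (GRCm38.p6, plus strand, 5′ to 3′), at chr11:67237562-67237861 for Myh4, chr11:67199852-67200151 for Myh1 and chr11:67170777-67171076 for Myh2, and the capitals mark the longest run of bases that all 3 share.
Myh4 promoter: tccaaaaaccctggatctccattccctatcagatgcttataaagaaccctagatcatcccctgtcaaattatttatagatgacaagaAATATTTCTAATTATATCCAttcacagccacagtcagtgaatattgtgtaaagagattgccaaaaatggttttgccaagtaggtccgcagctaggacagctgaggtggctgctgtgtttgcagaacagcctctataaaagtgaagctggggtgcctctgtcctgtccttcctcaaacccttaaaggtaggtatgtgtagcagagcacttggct
Myh1 promoter: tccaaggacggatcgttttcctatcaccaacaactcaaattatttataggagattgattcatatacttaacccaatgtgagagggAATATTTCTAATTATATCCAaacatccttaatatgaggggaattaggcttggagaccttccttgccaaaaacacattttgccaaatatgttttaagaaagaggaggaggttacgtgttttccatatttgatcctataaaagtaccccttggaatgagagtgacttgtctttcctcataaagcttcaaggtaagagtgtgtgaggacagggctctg
Myh2 promoter: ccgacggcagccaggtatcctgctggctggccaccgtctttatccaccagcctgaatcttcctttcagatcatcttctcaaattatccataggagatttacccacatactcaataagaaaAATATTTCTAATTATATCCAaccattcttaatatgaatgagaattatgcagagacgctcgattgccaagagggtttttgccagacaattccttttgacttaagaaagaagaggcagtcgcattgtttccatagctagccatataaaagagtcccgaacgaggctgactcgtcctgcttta
The shared run, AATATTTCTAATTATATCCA, is 20 bases long and begins 163 bases before the start site in Myh4, 165 in Myh1 and 130 in Myh2. Start sites here are those of the RefSeq windows, which for Myh4 and Myh1 differ from the gene starts given above. Searched on both strands, the shared run was found in 3 of 32851 promoter windows (0.00913%), those of these 3 genes. A match is a description of the letters and not of a site in use.

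Myh4, the type IIb myosin, was the main heavy chain in 7 of the 8 veins. It stood at 38.1, 5.4, 0.0227 and 5.31 RPKM in vehicle 1 to 4 and at 41.6, 43.3, 50.5 and 0.27 in MSC 1 to 4 (log2 fold change 1.56, SE 1.35, limma adjusted p = 0.601). As a share of the summed RPKM of the 6 heavy chains it was 76.3, 96.9, 13.7 and 75.4% in vehicle veins and 53.1, 86.1, 93.0 and 46.8% in MSC veins. In vehicle 3 the 6 genes had 44 reads in all and in MSC 4 they had 156, against at least 1494 elsewhere, so the shares of those 2 veins are the least certain.

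Myh1, the type IIx myosin, stood at 11.1, 0.0373, 0.068 and 1.05 RPKM in vehicle veins and at 25.3, 3.54, 3.22 and 0.104 in MSC veins (log2 fold change 1.08, SE 1.01, limma adjusted p = 0.628). Its share of the heavy chains was 22.2, 0.669, 41.1 and 15% in vehicle 1 to 4 and 32.3, 7.03, 5.94 and 17.9% in MSC 1 to 4. The highest share, in vehicle 3, rests on 18 reads of Myh1. Myh2, the type IIa myosin, was high in MSC 1 alone: it had 10.6 RPKM there, 0.0637, 0.034 and 0.0402 in MSC 2 to 4, and 0.331, 0.048, 0.0598 and 0.0251 in vehicle 1 to 4. That vein alone set the direction of its fold change, 0.78 on the log2 scale (SE 0.71, limma adjusted p = 0.618), which was -0.09 without MSC 1. These myosins are near-identical in long stretches and can share reads, and exons of Myh1 and Myh2 overlap antisense genes (Myhas and 9430073C21Rik), so low values of one beside high values of another are uncertain.

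**Figure D2:**
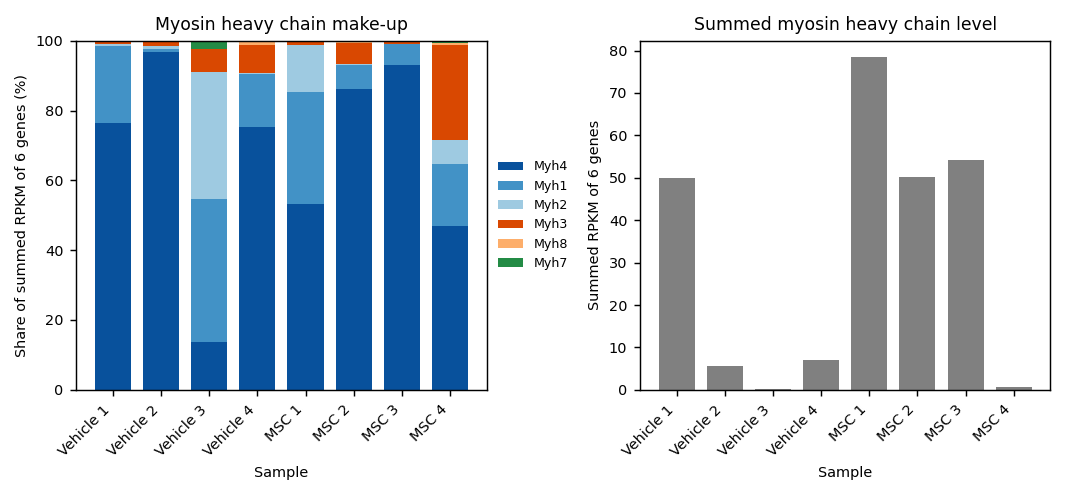
Left, the share of each of 6 myosin heavy chain genes in their summed RPKM in each vein (percent, stacked bars). Right, that summed RPKM, from 0.166 in vehicle 3 to 78.4 in MSC 1; Myh2 takes 13.5% in MSC 1 and Myh3 takes 27.0% in MSC 4, where the sum is 0.577.

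Genes of the slow fibre were low in all veins. Myh7, the slow myosin, had 0, 0, 1 and 2 reads in vehicle 1 to 4 and 1 read in each MSC vein, and a count of 0 allows up to 3. The slow troponin T gene Tnnt1 stood at 0.603, 1.51, 0.852 and 1.88 RPKM in vehicle veins and at 1.86, 2.65, 1.71 and 0.977 in MSC veins (log2 fold change 0.35, SE 0.23, limma adjusted p = 0.486). Vehicle 1, rich in fast genes, had the lowest value of the 8. The slow troponin C gene Tnnc1, also that of heart, lay between 0.323 and 0.725 RPKM in vehicle veins and between 0.722 and 1.32 in MSC veins, and the slow troponin I gene Tnni1 between 0.181 and 0.778 and between 0.506 and 1.95. These 3 spanned 4.07-fold (Tnnc1), 4.4-fold (Tnnt1) and 10.8-fold (Tnni1) from the lowest to the highest vein, where Tnnc2 spanned 477.1-fold. Tnnc1, Tnni1 and Myh7 were under the filter; in a limma fit with no filter the log2 fold change was 0.29 for Tnnc1 (SE 0.12, limma adjusted p = 0.357), that of Tnni1 was 0.26 (SE 0.23, limma adjusted p = 0.671) and that of Myh7 was 0.00 (SE 0.01, limma adjusted p = 0.979).

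The fast share of each troponin pair showed the same split. Tnnt3 made up 99.4, 89.1, 51.7 and 93.1% of Tnnt3 plus Tnnt1 in vehicle 1 to 4 and 98.7, 97.8, 98.7 and 69.3% in MSC 1 to 4. For Tnnc2 over Tnnc2 plus Tnnc1 the lowest shares were again those of vehicle 3 (41.6%) and MSC 4 (48.1%), and the others were at least 93.6%. For Tnni2 over Tnni2 plus Tnni1 they were 77.5 and 77.7% in those 2 veins and at least 95.4% elsewhere. In those 2 veins Tnnt1 stood at 0.852 and 0.977 RPKM, within the range of the other 6. Their shares rest on few reads. In vehicle 3 there were 7 of Tnnc2 and 10 of Tnnc1, 68 of Tnni2 and 33 of Tnni1, and 45 of Tnnt3 and 35 of Tnnt1. In MSC 4 there were 21 and 23, 75 and 36, and 111 and 41.

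The sarcomere genes common to both fibre types were led by Acta1, the actin of the skeletal thin filament. It is on the minus strand of chromosome 8 (123891769 to 123894751) and stood at 139.6, 11.9, 0.317 and 23.8 RPKM in vehicle veins and at 171.2, 230.1, 188.5 and 2.1 in MSC veins. Means were 43.9 ± 64.5 in vehicle and 148.0 ± 100.3 in MSC veins (SD, n = 4 each), and the log2 fold change was 2.16 (SE 1.64, limma adjusted p = 0.554). Its promoter is shown because it is the member with the highest mean RPKM. The window is chr8:123894726-123895025 in GRCm38.p6 (RefSeq, minus strand, 5′ to 3′), and the capitals mark a CArG box, the motif known to bind serum response factor.
Acta1 promoter: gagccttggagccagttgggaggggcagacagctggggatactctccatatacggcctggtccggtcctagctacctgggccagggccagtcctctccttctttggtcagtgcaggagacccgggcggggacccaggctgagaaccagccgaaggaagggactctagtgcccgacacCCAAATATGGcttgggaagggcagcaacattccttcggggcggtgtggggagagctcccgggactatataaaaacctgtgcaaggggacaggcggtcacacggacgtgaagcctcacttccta
The box begins 73 bases before the start site of that window, which differs from the gene start given above. On both strands, 1.81% of the 27025 genes with a promoter window held one, and so did 3 of the 34 members with a window, Acta1, Ldb3 and Myh4. In the Acta1 and Myh4 windows it overlapped neither an E-box (CANNTG) nor the shared myosin run. No match in the other windows says only that these letters are not there.

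Des, the intermediate filament desmin that ties Z-discs together and is also made by smooth muscle, had the smallest unadjusted p of the 34 (0.0324). It stood at 32.6, 7.78, 6.21 and 11.3 RPKM in vehicle veins and at 48.3, 64.3, 51.9 and 10.2 in MSC veins. MSC 1 to 3 were above all vehicle veins and MSC 4 was below vehicle 1 and 4. Means were 14.5 ± 12.3 and 43.7 ± 23.3 (SD, n = 4 each). The log2 fold change was 1.55 (SE 0.62, limma adjusted p = 0.255). Exons of Des overlap the antisense gene Gm15179.

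Tcap, the titin cap of the Z-disc, stood at 9.13, 0.0947, 0.024 and 0.403 RPKM in vehicle veins and at 19.1, 4.52, 11.5 and 0.0939 in MSC veins (log2 fold change 1.64, SE 0.98, limma adjusted p = 0.439). Ttn, the giant spring titin, had 1.4, 0.133, 0.00981 and 0.257 RPKM in vehicle and 2.29, 1.91, 2.34 and 0.0764 in MSC veins (log2 fold change 0.83, SE 0.40, limma adjusted p = 0.335). Both were higher in vehicle 1 and MSC 1 to 3 than in any other vein. Nebulin (Neb), the thin-filament ruler, ran from 0.0859 RPKM in vehicle 3 to 4.72 in MSC 3, and Mybpc1, a myosin-binding protein named for slow muscle, from 0.00571 in vehicle 3 to 10.7 in MSC 1. Of the Z-disc genes, Actn2 ran from 0.00752 to 4.88 RPKM, Myot from 0 to 8.01 and Ldb3 from 0.429 to 2.39. Ldb3 was among the least variable members (5.56-fold), together with the ligase gene Fbxo32 (3.95-fold) and the slow troponins Tnnc1 and Tnnt1 named above. Xirp1 and Xirp2, Xin actin-binding proteins of stressed and growing fibres, were highest in MSC 2 at 1.53 and 3.47 RPKM. Of these 11 sarcomere genes 10 were tested, with a median log2 fold change of 1.09, a range of 0.42 to 2.16 and 0 called.

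The excitation-contraction pair followed the fast genes. Ryr1, the calcium release channel of the reticulum, stood at 1.95, 0.178, 0.0548 and 0.313 RPKM in vehicle and at 2.66, 2.43, 3.26 and 0.122 in MSC veins (log2 fold change 0.91, SE 0.45, limma adjusted p = 0.352). Cacna1s, the voltage sensor that opens it, stood at 0.64, 0.104, 0.0218 and 0.118 RPKM in vehicle and at 1.27, 1.14, 1.47 and 0.0178 in MSC veins. It was under the filter; with no filter its log2 fold change was 0.64 (SE 0.29, limma adjusted p = 0.39). For both genes MSC 1 to 3 were above every vehicle vein. MSC 4 was below all 4 vehicle veins in Cacna1s and below vehicle 1, 2 and 4 in Ryr1.

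Among metabolic genes, Ckm, the muscle creatine kinase that buffers ATP, stood at 69.9, 9.12, 0.0964 and 18.9 RPKM in vehicle and at 95.2, 89.5, 89.5 and 0.629 in MSC veins (log2 fold change 1.59, SE 1.55, limma adjusted p = 0.648). Eno3, the muscle enolase, had 27.4, 5.64, 3.56 and 7.58 RPKM in vehicle and 35.7, 26.8, 26.7 and 6.26 in MSC veins (log2 fold change 1.20, SE 0.63, limma adjusted p = 0.374). Vehicle 1 lay within the range of MSC 1 to 3 in Eno3 and below it in Ckm. Pgam2 (phosphoglycerate mutase), Pygm (glycogen phosphorylase) and Ampd1 (AMP deaminase) were also highest in vehicle 1 and MSC 1 to 3, reaching 13.4 RPKM, 14.3 RPKM and 0.91 RPKM.

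Mb, the oxygen store myoglobin, which is richest in oxidative fibres, parted from Ckm. It stood at 6.19, 0.0179, 0.0182 and 0.529 RPKM in vehicle and at 34.4, 6.49, 8.22 and 0.0356 in MSC veins (log2 fold change 1.95, SE 1.0, limma adjusted p = 0.368). Per 100 RPKM of Ckm there were 8.86, 0.197, 18.8 and 2.81 RPKM of Mb in vehicle 1 to 4 and 36.2, 7.25, 9.19 and 5.65 in MSC 1 to 4. The ratio in vehicle 3, next below MSC 1, rests on 1 read of Mb and 6 of Ckm. MSC 1, the vein with the most Myh2, was thus also the highest of the 8 in Mb, both in level and relative to Ckm. Exons of Mb overlap Apol6 and Gm49540, and exons of Ckm overlap A930016O22Rik, all on the other strand.

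The 2 atrophy ligases had the same order of veins within each group and differed in the size of their spread. Trim63 (MuRF-1), which tags sarcomere proteins for destruction, stood at 13.5, 0.571, 0 and 1.38 RPKM in vehicle and at 7.27, 12.6, 12.6 and 0.0826 in MSC veins (log2 fold change 1.23, SE 0.98, limma adjusted p = 0.567). It was the only member that was highest in vehicle 1. Fbxo32 (atrogin-1) varied less between veins, at 4.33, 1.9, 1.69 and 2.42 RPKM in vehicle and 3.97, 4.7, 4.75 and 1.2 in MSC veins (log2 fold change 0.33, SE 0.33, limma adjusted p = 0.653).

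The embryonic and perinatal myosins and the factors Myf5, Myod1 and Myog had another order of samples. Their 4 highest veins were not vehicle 1 and MSC 1 to 3, unlike those of Pax7. All of these genes, Pax7 included, were highest in MSC 2. That peak was not particular to them, as 17 members were highest there, among them Acta1, Des, Tnnc1, Tnni1 and Tnnt1. Myh3, the embryonic myosin, stood at 0.405, 0.0861, 0.0114 and 0.57 RPKM in vehicle and at 0.764, 3.12, 0.502 and 0.156 in MSC veins, which for MSC 2 was 869 reads. Myh8, the perinatal myosin, reached 0.242 RPKM (69 reads) in MSC 2 and had 27 reads or fewer in every other vein. Neither reached the filter; with no filter the log2 fold changes were 0.60 for Myh3 (SE 0.37, limma adjusted p = 0.529) and 0.08 for Myh8 (SE 0.06, limma adjusted p = 0.617).

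Myog, the factor that drives differentiation into fibres, stood at 1.24, 0.197, 0.0615 and 1.21 RPKM in vehicle veins and at 0.381, 4.12, 2.59 and 0.842 in MSC veins (log2 fold change 0.72, SE 0.42, limma adjusted p = 0.433). MSC 2 and MSC 3 were above every vehicle vein, and MSC 1, rich in fibre genes, was below vehicle 1 and 4. Its promoter is shown because it is the one myogenic factor that reached the filter; the window is chr1:134289754-134290053 in GRCm38.p6 (RefSeq, plus strand, 5′ to 3′), and the capitals mark each E-box (CANNTG), the motif bound by the Myod1 family.
Myog promoter: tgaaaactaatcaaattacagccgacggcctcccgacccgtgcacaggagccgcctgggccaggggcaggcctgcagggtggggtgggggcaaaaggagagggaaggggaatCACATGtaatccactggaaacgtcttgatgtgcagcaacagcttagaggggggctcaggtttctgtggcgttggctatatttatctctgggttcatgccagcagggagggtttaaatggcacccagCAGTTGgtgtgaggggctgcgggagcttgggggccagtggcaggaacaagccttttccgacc
It holds 2 E-boxes, CACATG and CAGTTG, that overlap no CArG box. The motif is common: 20265 of 27025 genes with a window held one on either strand, as did 28 of 34 members (82.4%).

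Myod1, the factor of activated satellite cells, stood at 0.479, 0.363, 0.0245 and 0.124 RPKM in vehicle and at 0.185, 1.79, 1.08 and 1.01 in MSC veins. MSC 2 to 4 were above every vehicle vein, but MSC 1 was below vehicle 1 and 2. Reads numbered 41, 30, 2 and 9 in vehicle and 14, 154, 107 and 84 in MSC veins. Myf5, its relative, had 11, 6, 2 and 3 reads in vehicle and 6, 23, 22 and 19 in MSC veins, and Pax7, the marker of satellite cells, had 11, 6, 1 and 3 reads and 9, 21, 13 and 7. For these 3 the depth is too low to separate veins that differ by a few reads. With no filter the log2 fold changes were 0.64 for Myod1 (SE 0.25, limma adjusted p = 0.322), 0.15 for Myf5 (SE 0.05, limma adjusted p = 0.253) and 0.05 for Pax7 (SE 0.02, limma adjusted p = 0.424).

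The clearest parting of fibre and myogenic genes was in MSC 4. That vein had 2.1 RPKM of Acta1 and 0.629 of Ckm, beside 1.01 of Myod1 and 0.842 of Myog. Per 100 RPKM of Ckm it had 160.0 RPKM of Myod1 and 134.0 of Myog, resting on 40 reads of Ckm, 84 of Myod1 and 56 of Myog. The order depends on the fibre gene chosen. In MSC 4 Acta1, Tnnt3 (2.2 RPKM) and Eno3 (6.26) lay above both factors, and others such as Myh4 (0.27) lay below both. Vehicle 3, the other vein low in fibre genes, had 25.4 and 63.7 per 100 of Ckm, resting on 2 and 4 reads of Myod1 and Myog, and the other 6 veins had at most 3.98 and 6.39.

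**Figure D3:**
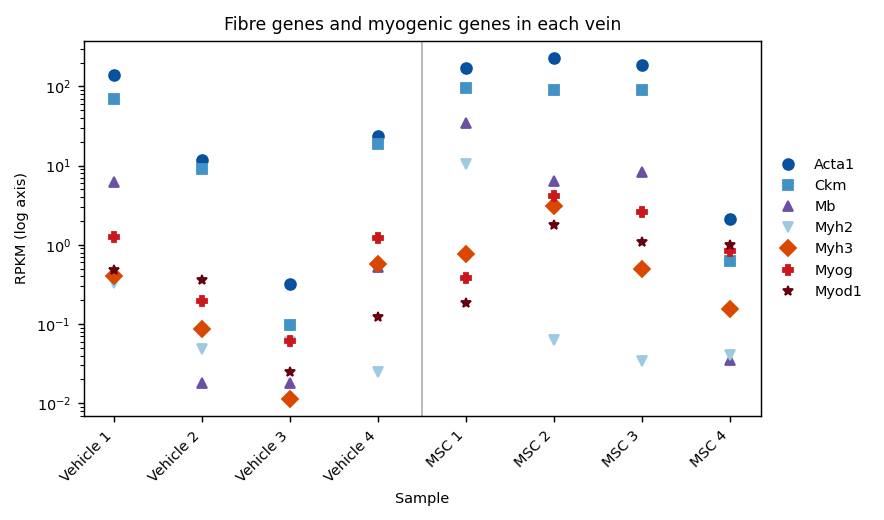
RPKM (log axis) of 4 fibre genes (Acta1, Ckm, Mb, Myh2), the embryonic myosin Myh3 and the myogenic factors Myog and Myod1 in each vein, 1 point per gene and sample. In MSC 4 Myod1 (1.01) and Myog (0.842) lie above Ckm (0.629), and Myh2 stands at 10.6 in MSC 1 with every other vein at 0.331 or less.

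Other genes of skeletal muscle, listed by function, were followed alongside. Of 50 further shared muscle genes 32 were tested and 0 were called (0.231% of all genes tested), 28 had a log2 fold change above 0, and the median was 0.76. In 39 of the 50 the 4 highest veins were again vehicle 1 and MSC 1 to 3. Pfkm, the muscle phosphofructokinase, stood at 13.8, 4.41, 4.07 and 6.11 RPKM in vehicle and 21.7, 16.3, 20.7 and 5.29 in MSC veins (log2 fold change 1.05, SE 0.45, limma adjusted p = 0.288). Gys1, a glycogen synthase of many tissues, lay between 8.16 and 13.0 RPKM in all veins (log2 fold change -0.02). The smallest unadjusted p belonged to Cacnb1, a calcium channel subunit (log2 fold change 0.48, limma adjusted p = 0.108), and Jph2, a junctophilin (0.36, limma adjusted p = 0.229).

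Of 10 further slow fibre genes 4 were tested and 0 were called. In 4 of the 10 (Csrp3, Ankrd2, Myoz2 and Tnnt2) the 4 highest veins were vehicle 1 and MSC 1 to 3. The peak vein varied: 3 were highest in MSC 1 (Myl2 at 1.39 RPKM, Myl3 at 0.164 and Myoz2 at 2.06). In that vein 2 were lowest (Myl6b at 0.788 and Myh7b at 0.0238). The 7 that did not peak there were highest in vehicle 1, 2 or 4 or in MSC 2. Atp2a2, the calcium pump of slow and smooth muscle, lay between 27.1 and 46.4 RPKM (log2 fold change -0.04), and Csrp3, a Z-disc protein, ran from 0.0467 to 3.52 RPKM with vehicle 1 and MSC 1 to 3 highest (log2 fold change 0.50, limma adjusted p = 0.692). Among 20 genes of denervation and regeneration 10 were tested and 0 were called, with a median log2 fold change of 0.21. Of the 20, 11 were highest in MSC 2, as were 17 members, Myh3 and Acta1 included. Among the 11, the fusion gene Mymk, listed as Tmem8c, had 1.36 RPKM there and at most 0.378 elsewhere. The cadherin Cdh15 of satellite cells had 1.47 and at most 0.899. The fetal acetylcholine receptor subunit Chrng had 0.639 and at most 0.43, and the fetal actin Actc1 4.06 and at most 1.99. The log2 fold change was 0.58 for Actc1 (SE 0.25, limma adjusted p = 0.278), and for Itga7, an integrin of skeletal and smooth muscle, it was -1.06 (SE 0.35, limma adjusted p = 0.185). Runx1, a transcription factor also of blood cells, lay between 6.43 and 8.99 RPKM (log2 fold change 0.18).

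Markers of other cells were read beside these results. Defining markers of a vein wall were present, with endothelial Pecam1 (107.9 to 171.2 RPKM) and smooth muscle Acta2 (70.1 to 188.4). Of 12 cardiomyocyte genes, Myh6, Myl7 and Ryr2 were under 0.1 RPKM in every vein, but others of the list were not. Tnni3 stood at 0.814, 0.899, 1.02 and 2.13 RPKM in vehicle veins and at 1.46, 1.25, 1.48 and 1.59 in MSC veins. Mybpc3 lay between 0.268 and 0.514 RPKM. The list summed to 4.02 to 6.41 RPKM in vehicle and 4.75 to 13.2 in MSC veins. The highest sum, in MSC 2, held the fetal genes Actc1, Tnnt2 and Myl4, which developing skeletal muscle also uses. Of 10 smooth muscle genes 9 were tested and 0 were called. Their summed RPKM was 140.7, 218.7, 309.4 and 183.9 in vehicle 1 to 4 and 217.5, 172.3, 201.7 and 305.4 in MSC 1 to 4. Acta2 (188.4 RPKM) and Tagln (59.3 RPKM) made up most of the sum in MSC 4, and other genes of the list had other orders. In MSC 4 Acta2, Actg2 (16.7 RPKM), Smtn (19.1) and Notch3 (4.46) were at their highest of the 8 veins. Tagln and Cnn1 (3.53) were below vehicle 3 only, and Lmod1 (0.954) was below vehicle 2 and 3. Synpo2 (1.17) was at its lowest in MSC 4. There Myh11 (6.89) and Mylk (4.86) were below vehicle 2 to 4, though Myh11 was the highest of the MSC veins. All 12 adipocyte genes had a negative log2 fold change (median -2.13, 0 called). They summed to 3357.7 to 4950.6 RPKM in vehicle and 393.2 to 1952.9 in MSC veins. These sums did not overlap, but Fabp4 and Cfd made up most of each. Single genes did overlap: Lep (2.45 RPKM) and Cidea (3.57) were highest of the 8 veins in MSC 3. Pck1 was higher in MSC 3 (75.3) than in vehicle 2 (73.9). Macrophage genes (8 of 9 above 0, 0 called) summed to 3347.1 to 4268.3 and 4233.4 to 7864.5 RPKM. Endothelial genes (2 of 8 above 0) summed to 474.9 to 591.4 and 363.1 to 594.7, and fibroblast genes (2 of 7 tested above 0) to 1112.0 to 1609.4 and 1108.4 to 1471.3. Of the 7 Schwann cell genes 3 were tested and 1 was above 0, with sums of 41.7 to 62.9 and 39.5 to 55.2. The part of any of these cells in the skeletal muscle values was not tested.

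The skeletal muscle genes varied widely between veins of one group. Their within-group SD of log2(RPKM + 1) had a median of 1.41 over the 34 tested, beside 0.15 over all 12129 genes. Of the 34, 28 lay above 0.84, the 99th percentile of all genes tested, and 19 of the 30 genes with the largest within-group SD in the table were members, with Acta1 (2.89), Tnnc2 (2.73) and Ckm (2.72) the first 3. The standard errors of the fold changes ran from 0.23 to 1.64 over the 34, where the median over all genes tested was 0.11. The least variable tested members were Tnnt1 (0.38), Ldb3 (0.45) and Fbxo32 (0.56).

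**Figure D4:**
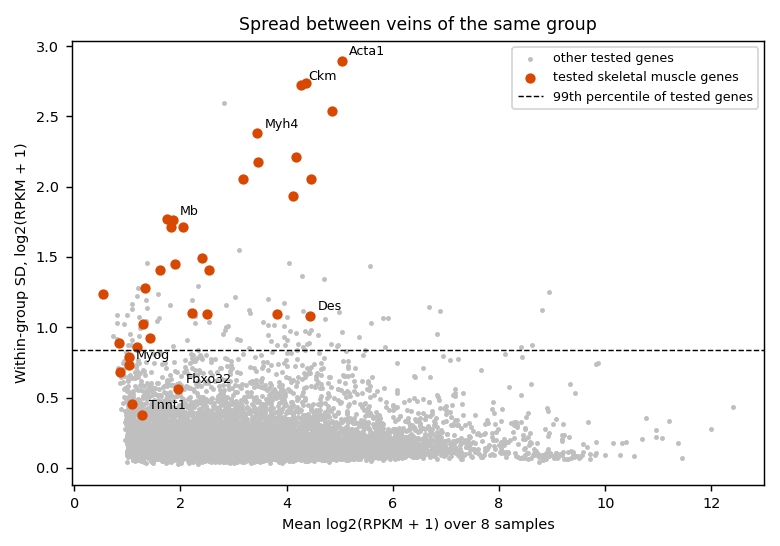
Within-group SD against mean level, both on the log2(RPKM + 1) scale, for the 12129 tested genes, with the 34 tested skeletal muscle genes in orange. Of the 34, 28 lie above the dashed line at 0.84, and Acta1 at 2.89 is the highest point.

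**Figure D5:**
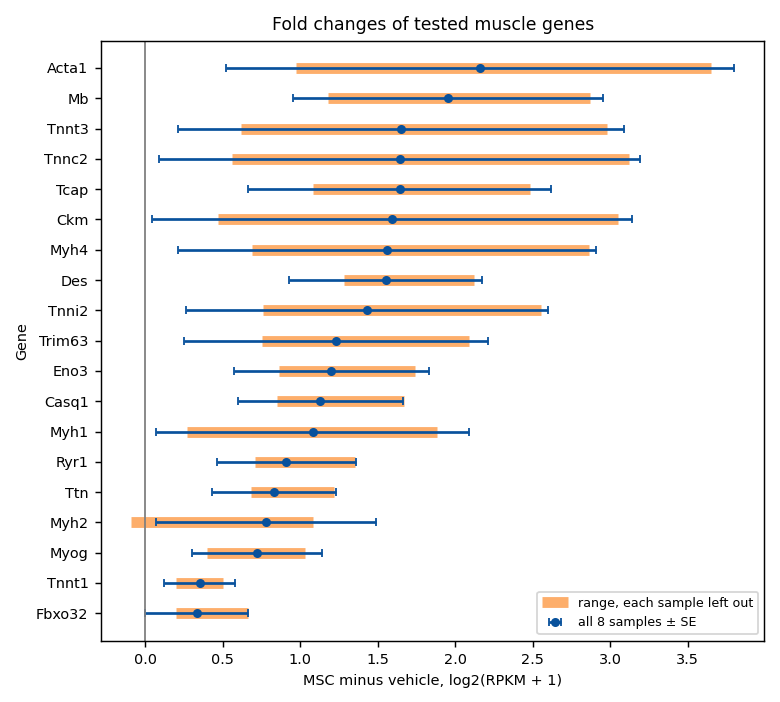
Log2 fold change (MSC minus vehicle) of tested skeletal muscle genes with its SE (points and bars, all 8 samples) and the range over fits that leave out 1 sample at a time (orange). Acta1 is highest at 2.16, none passes the adjusted threshold, and of the genes plotted the range of Myh2 reaches below 0, to -0.09 without MSC 1.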

How the data were processed

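RNA of 8 outflow veins (4 vehicle, 4 MSC) was sequenced with a TruSeq V2 kit from 0.5 µg of total RNA each, per the labels' protocols. The authors deposited RPKM values, 1 column per sample; per the submitters' processing notes, mm10 was used as the build. The sources used here do not give the aligner, counter, annotation, strand use or filters. Low RPKM values step in multiples of 1 read, which returned whole reads for 100.0% of 143006 values above 0 (tolerance 0.001 reads) and 26.9 to 38.2 mega-reads per sample. Rows that share a symbol (69) were kept apart.

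Groups came from the treatment label. The test was limma 3.58.1 (R 4.3.3) on log2(RPKM + 1) with a variance trend, no covariate, 2-sided, Benjamini-Hochberg at 0.05, for 12129 genes whose mean RPKM reached 1. Fold changes on this scale understate those of low genes; genes under the filter are given from a fit with no filter. The read recovery and the fit were tested on simulated data. Members, lists and naming rule were chosen with earlier results of these data known. Fold changes are given for the myosin heavy chains, the 3 most abundant members per role, the myogenic factors and the 3 smallest unadjusted p. Of other lists, the 2 most abundant and the 2 smallest p were eligible. Further genes of those lists were named after their values were seen, as were members with ranges only. Among them were Myl2, Myl3, Myoz2, Myh7b, Ankrd2, Mymk, Cdh15, Chrng, Tagln, Synpo2, Myh11, Mylk, Actg2, Smtn, Notch3, Cnn1 and Lmod1. Others were Tnni3, Mybpc3, Lep, Cidea and Pck1. Gene coordinates are GENCODE vM21 (GRCm38), counted from 1, found for 45 of 45 members; promoters are RefSeq's, matched for 34. Alternatives were the pseudocount, filter, scaling, replicate block, sample weights, trend, voom on recovered reads and each sample left out.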

Additional observations from a re-analysis of the deposited data

Results flagged for a closer look

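In groups of 4, the gap of a vein to the nearest other vein was divided by the range of the group, both on log2(RPKM + 1). Ratios on RPKM itself differ and were not examined. A vein counted as standing apart where its ratio on the log2 scale was above Dixon's 95% critical value for 4 samples. Of the 56 gene and group combinations examined 14 met it. The 1 in 20 that chance gives is no yardstick for them, since the genes were named partly by level and unadjusted p in these same samples. The combinations are not independent, since most of the genes follow the same veins. In the MSC group, MSC 4 lay far below the other veins for 11 genes. The ratio was 0.949 for Myh4, 0.969 for Tnnc2, 0.885 for Tnni2 and 0.951 for Tnnt3 among fast fibre genes. It was 0.932 for Acta1, 0.879 for Ttn and 0.841 for Des in the sarcomere, 0.839 for Ryr1 and 0.835 for Cacna1s in coupling, 0.985 for Ckm, and 0.847 for Fbxo32. Myh2 stood apart as the highest of its group in MSC 1 (0.988) and in vehicle 1 (0.873). The ratio does not give the size of the gap: Myh2 had 10.6 RPKM in MSC 1 but only 0.331 in vehicle 1, beside 0.0598 or less in vehicle 2 to 4. Tcap stood far above in vehicle 1 (0.863).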

How the results depend on the processing

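No skeletal muscle gene was called under any alternative run, leave-one-out fits included (0 to 0). Over all genes, calls numbered 28 (3 higher, 25 lower) with the settings used, 10 with a pseudocount of 0.1, 14 with a filter at 0.1 RPKM, 1 with no filter, 72 with median scaling, 129 with quantile normalization (33 higher, 96 lower), 59 after rescaling to the same sum without the members (12 higher, 47 lower), 73 with array weights (27 higher, 46 lower) and 47 with voom on recovered reads. Leaving out 1 vein gave 0 to 170 calls, and 0 to 15 members whose groups did not overlap, the 15 being without MSC 4. Of 367 fold changes under alternatives 366 kept their direction and side of the threshold. The log2 fold change of Myh2 ranged from -0.09 (limma adjusted p = 0.823, without MSC 1) to 1.08 when 1 vein was left out. The lowest adjusted p of a member ran from 0.0938 (array weights) to 0.5 (without MSC 2) in these limma fits. With the replicate block 0 genes were called, and same-numbered veins did not deviate together (r = 0.143, -0.00282, -0.332 and -0.122). The labels do not say whether the numbers pair the samples, and 4 samples per group cannot settle it. The causes were not tested. Few reads limit Myh7, Myh8, Pax7 and Myf5, and the heavy chain and troponin shares of vehicle 3 and MSC 4.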
